A study of Mus musculus with 8 samples.

Results

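The Csf1r locus was examined in chromatin accessibility maps of mouse alveolar macrophages (AMs). The gene (ENSMUSG00000024621) lies on the plus strand at chr18:61100598-61132149 (mm10) and was taken with 20 kb on either side. Overlapping peaks of the 8 libraries, those with 1 base or more in common, were joined into regions. Of the 82424 merged regions in the genome, 13 overlapped this window. They held 83 peaks in all, and they are called R1 to R13 here, from upstream to downstream.

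Csf1r encodes the receptor tyrosine kinase for M-CSF (Csf1) and IL-34 (Il34), which carries survival and differentiation signals in monocytes and macrophages. Its transcription in macrophages starts at a promoter without a TATA box that is bound by PU.1, and depends on an enhancer in the first intron known as FIRE, the Fms-intronic regulatory element. AMs live in the airspaces of the lung, where they clear surfactant, and they also depend on GM-CSF, whose receptor is encoded by Csf2ra and Csf2rb.

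The libraries were made by ATAC-seq, in which the Tn5 transposase cuts open DNA and leaves adapters in it. AMs came from bronchoalveolar lavage of adult mice on the C57BL/6J background that all carried loxP sites in both copies of Rxra and Rxrb, the genes of the retinoid X receptors RXRα and RXRβ. The KO group (genotype CD11cCre+ Rxrabfl/fl, replicates 1_2, 1_3, 2 and 3) also carried Cre under the Cd11c promoter, which is active in AMs and in dendritic cells, and the WT group (CD11cCre- Rxrabfl/fl, replicates 1_2, 1_3, 3 and 4) did not. The sources used here do not give per-library sex, or whether libraries of a genotype came from different animals. P-values therefore cover only the spread between these libraries. Those of the limma model, described below, also rest in large part on a prior variance shared across 47499 regions (median of 46.87 residual and prior degrees of freedom).

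For each peak the deposited lists give a fold enrichment and a p-value, from which the number of tags (extended read ends) piled up at the summit was worked back. Relative depth, as background tags per 200 bp of genome, ran from 1.12 to 1.86 in KO and from 1.42 to 2.26 in WT. The lists held 60363 to 65009 peaks in KO and 61240 to 72484 in WT, a difference that the two-sided exact permutation test did not tell from the library spread (p = 0.143). The variance between the tags of KO replicates 1_2 and 1_3 was 0.979 times that of counting alone, and between KO 2 and 3 it was 1.01 times, against 1.10 to 1.28 in the other KO pairs and 1.12 to 2.01 in the WT pairs. Results at Csf1r are therefore also given with each of these KO pairs counted as 1 sample. Of 12 AM marker genes, 9 had a promoter peak in all 8 libraries, among them Siglecf, Marco and Pparg, whereas Chil3 and Krt79 had none in any library. None of the 3 B cell markers had a promoter peak, but 1 of 4 T cell (Cd3d), 3 of 5 neutrophil, 4 of 8 monocyte or interstitial macrophage, 2 of 4 epithelial, 2 of 3 endothelial and 2 of 3 dendritic cell markers had one in every library. A main figure legend of the study gives the ATAC-seq cells as sorted mature AMs (mAMs, CD11b- and SiglecF+), and its results text also calls them mAMs. Legends of some panels of a supplementary figure instead name the KO cells as immature AMs (CD11b+ and SiglecF+), while another of its panels says mAMs. The methods say only AMs from lavage. An open promoter is no measure of expression. The part of other cells in the results was not tested, and the deletion itself was not checked in these lists.

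The 13 regions fell before, within and just beyond the gene. Each region was placed by its main summit, that of the library with the smallest peak p-value there, which need not hold the most tags. By this summit there were 4 upstream of the annotated gene start (R1 to R4), 8 within the gene body (R5 to R12) and 1 past its end (R13). A peak was present in all 8 libraries at 8 regions (R1, R3, R5, R6, R7, R8, R10 and R12), and 12 of the 13 had a peak in at least 2 libraries. The gene body begins with a noncoding transcript, Csf1r-206, at base 61100598, and the protein-coding transcripts start at 61105572 (Csf1r-201), 61105591 (Csf1r-203), 61105650 (Csf1r-205) and 61105852 (Csf1r-202). Distances below are counted from the first of these coding start sites unless another is named. The map of the locus shows that the tallest peaks stood in the first intron and at 15.2 kb. R13 at the downstream edge was weak, with 14 to 15 tags in KO and 18 in WT. R1 at the upstream edge held 41 to 63 tags in KO and 41 to 77 in WT.

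**Figure D1:**
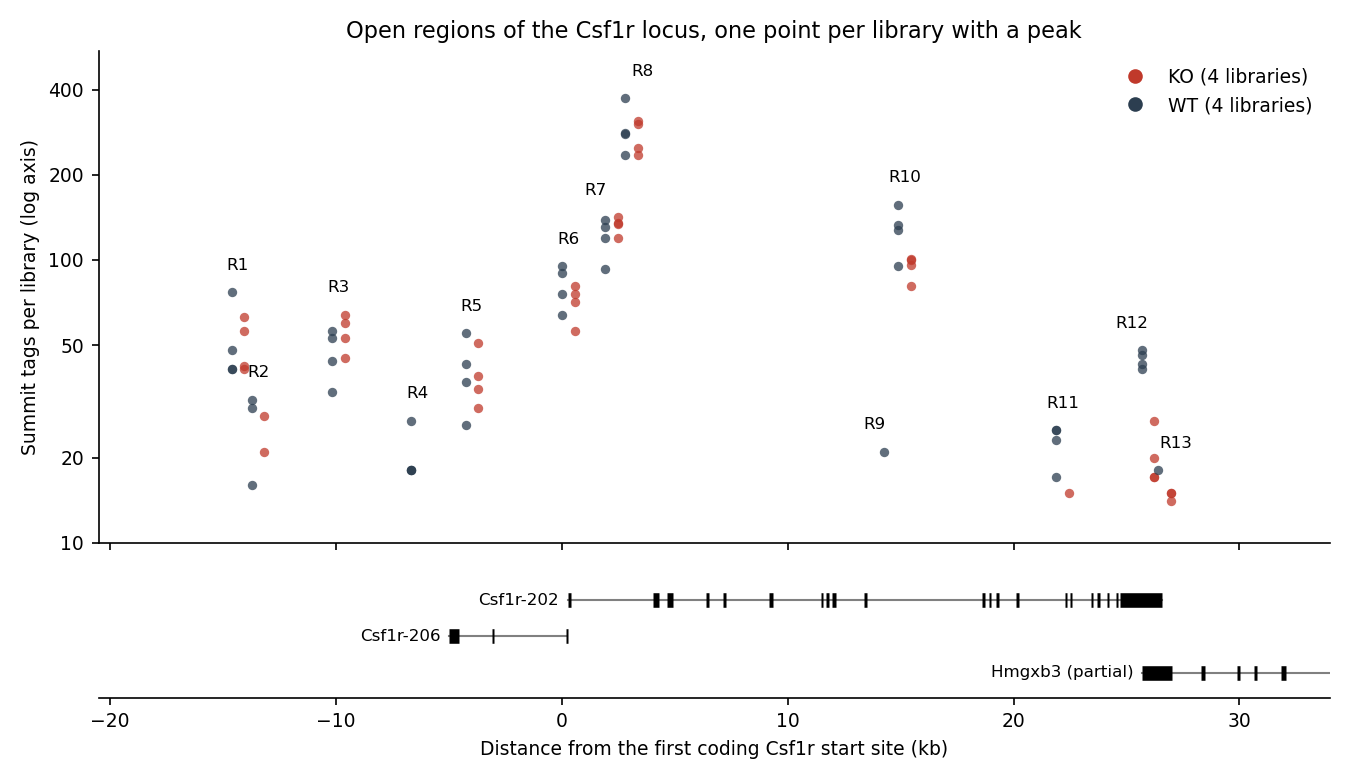
Summit tags (log axis) of every peak in the 13 regions R1 to R13 against distance in kb from the first coding Csf1r start site, with KO libraries in red and WT libraries in dark blue, each set slightly to one side, and exons of Csf1r-202, Csf1r-206 and the overlapping end of Hmgxb3 drawn as blocks below. R8 in the first intron reaches 235 to 374 tags, R4 has WT points and no KO point, and at R12 the 4 KO points (17 to 27) lie below the 4 WT points (41 to 48).

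R6 was the promoter region. It spanned chr18:61105727-61106028, and its main summit lay 13 bp after the start of Csf1r-202, in the untranslated first exon of that transcript. The summits of the 8 libraries lay within 43 bp of each other. KO libraries had 81 (1_2), 76 (1_3), 71 (2) and 56 (3) tags at the summit, and WT libraries had 64 (1_2), 95 (1_3), 90 (3) and 76 (4). The groups overlapped, with the highest and second highest values in WT and the lowest in KO. After log2(tags + 0.5) was centred on each library's median over the 47499 regions listed in all 8 libraries, the promoter stood at 0.14 ± 0.21 in WT and 0.16 ± 0.13 in KO (SD, n = 4 each). The KO minus WT difference was 0.024 on the log2 scale (SE 0.13, 95% interval -0.24 to 0.28), with an adjusted p of 0.933 by limma across all 47499 regions. Its sign was not stable, and turned to -0.032 when tags were scaled by the genome-wide background. As folds, the interval ran from 0.849 to 1.22.

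Among promoter regions with a peak in all 8 libraries, this one was on the weaker side. R6 stood at percentile 54.5 of the 47499 regions by mean centred tags. Only 26.9% of 10624 such promoter regions, the strongest of each gene, were weaker. Promoters not listed in every library were left out. The local background around R6 was high, at 14.1 to 22.3 tags per 200 bp, so that the deposited fold enrichment was only 3.52 to 5.09. Tags of R6 itself and of the nearby R7 and R8 may be part of that background, and their share was not tested. In KO the fold ran from 3.75 to 4.04, and in WT from 3.52 (1_2) to 5.09 (4), again with overlap.

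R8 was the strongest region of the locus and lay at the known place of FIRE. It spanned chr18:61108370-61108926, 3.09 kb after the first coding start, within the 3617 bp first intron of Csf1r-202 (chr18:61105999-61109615). Its 8 summits lay within 23 bp of each other, and its mean level was at percentile 94.9 of all regions shared by the 8 libraries. KO libraries had 304 (1_2), 310 (1_3), 250 (2) and 235 (3) tags, and WT libraries had 280 (1_2), 374 (1_3), 282 (3) and 235 (4). These counts overlapped fully. In each library R8 held 31.8% to 37.0% of the summit tags of the locus and 3.09 to 4.38 times as many as the promoter.

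R8 did not pass the test across all regions, although every KO library stood above every WT library after centring, by a narrow margin. The centred level was 1.98 ± 0.047 in WT and 2.11 ± 0.081 in KO (SD, n = 4 each), and the lowest KO and the highest WT library both rounded to 2.03. The difference was 0.13 log2 units (SE 0.079, 95% interval -0.026 to 0.29, limma adjusted p = 0.289), a fold of 1.10 in favour of KO whose interval includes no change. An exact permutation test on these 8 values alone gave p = 0.0286, the smallest that 4 against 4 allows. The share of all regions whose groups separate in this way, as those of R7 and R12 also did, was not counted. With tags taken as log2 fold over the local background the difference was 0.035 (adjusted p = 0.833). The background around R8 was itself 9.63 to 11.8 times the genome-wide background, from 9.79 to 11.8 in KO and from 9.63 to 11.5 in WT. It too may hold tags of R6, R7 and R8.

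R7, the other region of the first intron, was higher in KO by the test across all regions. It spanned chr18:61107579-61108037, between the promoter and R8, with a summit 1915 bp after the start of Csf1r-202. KO libraries had 135 (1_2), 142 (1_3), 134 (2) and 120 (3) tags, and WT libraries had 131 (1_2), 138 (1_3), 120 (3) and 93 (4). The raw counts overlapped, and the groups separated only after centring, at 0.98 to 1.15 in KO and 0.60 to 0.90 in WT. The difference was 0.37 log2 units (SE 0.10, fold 1.29, limma adjusted p = 0.0105), and the exact permutation test on the 8 values gave p = 0.0286. The call depended on the scale: the difference stayed positive but the limma adjusted p rose to 0.370 with scaling by genome-wide background, to 0.250 with log2 fold over local background, and to 0.0710 with the close KO pairs counted as 1 sample each. It held in every fit that left out a single library (adjusted p 0.00581 to 0.0406).

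The regions upstream of the coding start sites were less open. R1 (chr18:61090613-61091443, 14.3 kb upstream) had 41 to 63 tags in KO and 41 to 77 in WT. Its difference of 0.21 log2 units (SE 0.16) had a limma adjusted p of 0.423. R5 (chr18:61101431-61101760, 3.98 kb upstream) lay in the first intron of the noncoding Csf1r-206 and had 30 to 51 tags in KO and 26 to 55 in WT, a difference of 0.18 (SE 0.18, adjusted p = 0.568 by limma). The intervals of these differences, -0.11 to 0.52 at R1 and -0.19 to 0.55 at R5, reach to folds of 1.43 and 1.47.

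R3 (chr18:61095525-61095853, 9.89 kb upstream) passed the test as higher in KO. KO libraries had 45 (1_2), 64 (1_3), 53 (2) and 60 (3) tags, and WT libraries had 53 (1_2), 56 (1_3), 44 (3) and 34 (4). KO 1_2 and KO 2 lay among the WT values, and KO 1_2 still did after centring. The difference was 0.47 log2 units (SE 0.16, fold 1.39, limma adjusted p = 0.0391), and the exact permutation test on the 8 values gave p = 0.0571. This call was easily lost: the limma adjusted p was 0.297 with scaling by genome-wide background, 0.103 on the local fold, 0.128 with the close KO pairs as 1 sample each, and 0.0744 to 0.160 without any one of KO 1_3, KO 2, KO 3, WT 1_3, WT 3 or WT 4, with the direction kept throughout.

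R10 was the other strong region of the gene, with more tags on average than R7 in WT (128 against 120.5) and fewer in KO (94.5 against 133). It lay 15.2 kb into the gene (chr18:61120534-61120944), in intron 10 of Csf1r-202, where the retained-intron transcript Csf1r-204 ends. KO libraries had 96 (1_2), 101 (1_3), 100 (2) and 81 (3) tags, and WT libraries had 128 (1_2), 157 (1_3), 133 (3) and 95 (4). The KO values ran lower but WT 4 lay among them. The centred difference was -0.21 (SE 0.11, 95% interval -0.42 to 0.0054), with a limma adjusted p of 0.204.

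R12, at the 3′ end of the gene, showed the largest difference among the 8 shared regions. It spanned chr18:61131325-61131714, 629 bp before the end of the gene at its main summit. There the untranslated last exon of Csf1r-202 overlaps the untranslated last exon of Hmgxb3, a gene for an HMG-box protein that is read from the opposite strand, so that the region cannot be assigned to one of these genes. KO libraries had 17 (1_2), 20 (1_3), 27 (2) and 17 (3) tags, and WT libraries had 48 (1_2), 43 (1_3), 41 (3) and 46 (4). Every KO value was below every WT value, before and after centring.

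R12 fell by 0.93 on the log2 scale in KO (SE 0.20, 95% interval -1.32 to -0.53), to 0.526 of the WT level, with a limma adjusted p of 0.000676. The exact permutation test on the 8 values gave p = 0.0286. Of the 47499 regions, 1.24% had a larger difference in either direction. The fall was also called in all 16 alternative fits, with differences from -1.09 to -0.64 and adjusted p up to 0.0486 by limma. The smallest was on the local fold. The background around R12 also ran lower in KO, at 1.76 to 2.45 times the genome-wide background against 2.42 to 2.68 times in WT. Tags of R12 itself may be part of this local background, and their share was not tested.

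**Figure D2:**
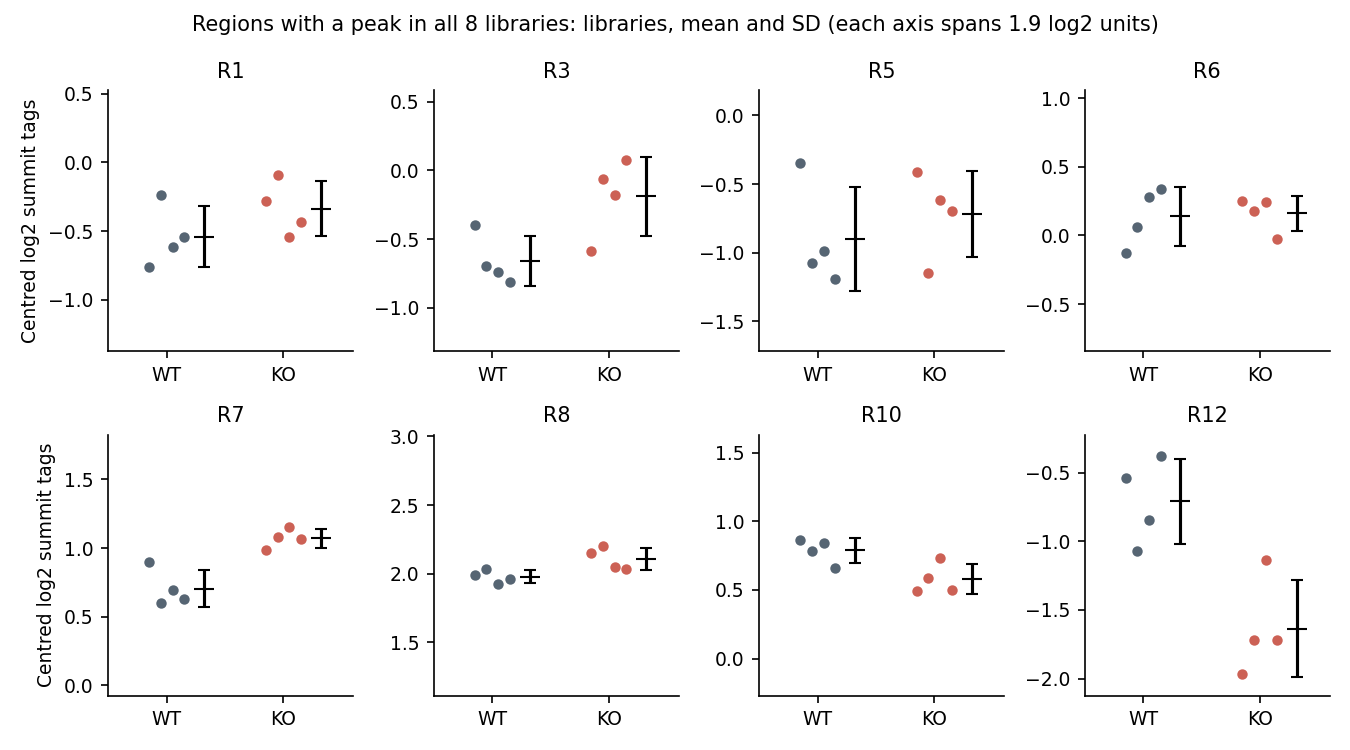
Centred log2 summit tags of the 8 regions listed in every library, with 1 point per library, WT in dark blue and KO in red, and the mean with its SD in black beside them. KO points lie clear of WT points at R7 (above) and R12 (below), they nearly touch at R8 near 2.03, and they overlap at R1, R3, R5, R6 and R10.

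Across the 8 shared regions, 3 were called at an adjusted p under 0.05 by limma, R12 as lower and R3 and R7 as higher in KO. Over the whole genome 7.03% of the 47499 shared regions were called lower (3337) and 5.81% higher (2759). With 8 regions, 1 lower and 2 higher calls cannot be read as a share that differs from this background. The median difference over the 8 regions was 0.16, against 0.043 over all regions. Genome-wide, scaling by background tags moved the balance to 1988 lower and 575 higher, and at Csf1r it left R12 as the single call. Averaged over the 8 regions, the centred tags were 0.099 ± 0.067 in the 4 WT and 0.13 ± 0.059 in the 4 KO libraries (mean ± SD), and the exact permutation test gave p = 0.486 (adjusted 0.486).

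**Figure D3:**
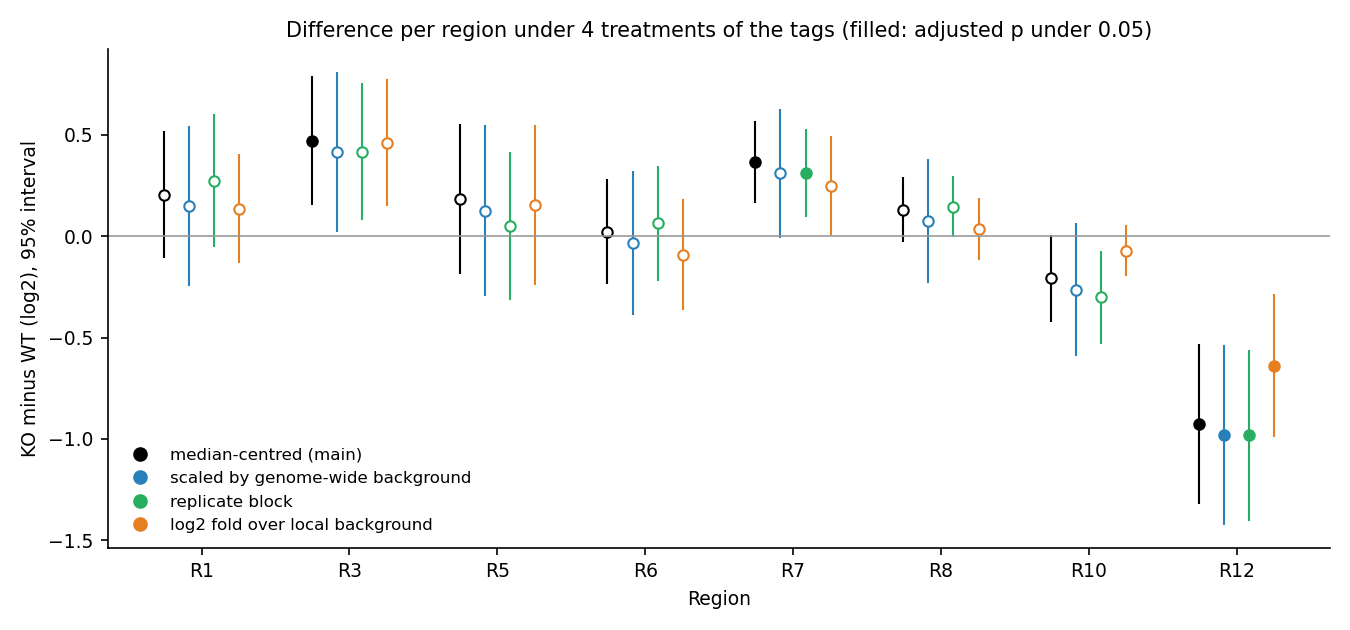
KO minus WT difference in log2 units with its 95% interval for each shared region under 4 treatments of the tags, with filled points where the limma adjusted p was under 0.05. The replicate block pairs libraries with the same replicate number. R12 is filled under all 4 treatments, R7 under median centring and the replicate block, and R3 under median centring alone.

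The 5 remaining regions were weak and present in some libraries. R4 (chr18:61099047-61099302), 6.38 kb upstream of the coding start and 1410 bp before the annotated gene start, had a peak in 4 of 4 WT libraries and 0 of 4 KO libraries. Its summits held 18 (1_2), 27 (1_3), 18 (3) and 18 (4) tags in WT. That was 11.3 to 12.7 times the genome-wide background of each library. From the background around R4, the smallest summit that could have been listed in KO was estimated at 8 to 12 tags, or 6.45 to 7.11 times their genome-wide background. This is no firm upper limit for KO, since a summit above it stays unlisted when fewer than 200 bases in a row pass the threshold.

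A peak in all WT and no KO libraries occurred at 0.820% of the 72711 regions listed in 2 or more libraries, and the reverse at 0.285%. At Csf1r the numbers were 1 and 0 of 12. R4 was no longer present in all WT libraries when every list was shortened to the length of the shortest, which removed its WT 1_2 peak, the weakest of the 4 by rank.

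R11 (chr18:61127581-61127922, 22.2 kb into the gene, in intron 14 of Csf1r-202) was also more often listed in WT. WT libraries had 17 (1_2), 25 (1_3), 25 (3) and 23 (4) tags, and among the KO libraries 1_2 had a peak, with 15 tags. KO 1_3, 2 and 3 had none, where summits of 12, 10 and 9 tags were estimated to be the smallest that could be listed. R13 (chr18:61131973-61132429) crosses the end of Csf1r over the last exon of Hmgxb3, with its main summit (KO 3) 95 bp past that end and the KO 1_3 summit inside the gene. It went the other way with 15 (1_3), 15 (2) and 14 (3) tags in KO and 18 tags in WT 3. R2 (chr18:61091985-61092307) had 21 and 28 tags in KO 1_2 and 1_3, and 30, 32 and 16 tags in WT 1_3, 3 and 4. R9 (chr18:61119994-61120193) was a single peak of 21 tags in WT 1_2.

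**Figure D4:**
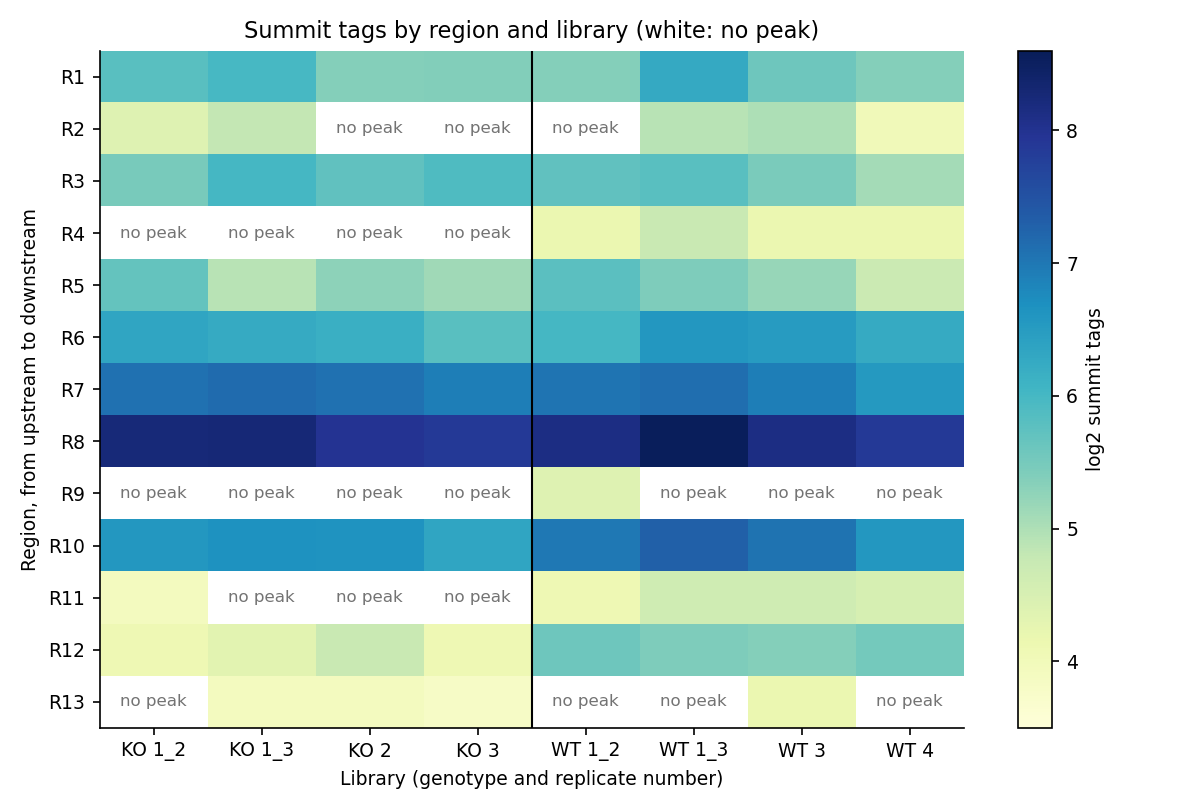
Heat map of log2 summit tags in the 13 regions (rows) and 8 libraries (columns, KO left and WT right of the line), with cells marked where a library has no peak. R4 is empty across KO, R11 is filled in 1 KO and 4 WT libraries, and R13 is filled in 3 KO and 1 WT library.

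Fewer regions of the locus were listed per KO library. KO libraries had a peak in 10 (1_2), 10 (1_3), 9 (2) and 9 (3) of the regions, and WT libraries in 11 (1_2), 11 (1_3), 12 (3) and 11 (4). The means were 9.5 ± 0.58 and 11.2 ± 0.50 (SD, n = 4 each), without overlap (exact permutation test, two-sided, p = 0.0286, adjusted over 3 measures 0.0429). Peaks covered 3420 ± 147 bases in KO and 3985 ± 267 in WT (p = 0.0286 by the same exact test, adjusted 0.0429). Both differences shrank with lists of equal length, to 1 region per library (exact permutation p = 0.400) and 374 bases (p = 0.143). List lengths overlapped between the groups (60363 to 65009 peaks in KO and 61240 to 72484 in WT). Their part in what remained was not tested. With the close KO pairs as 1 sample each, the exact p was 0.0667 for the regions and 0.133 for the bases.

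Short sequence patterns were counted on both strands within 100 bp of each region's main summit. The PU.1 pattern GAGGAAGT was found in R2, R5 and R13, and its core GAGGAAG also in R12. Over the 72711 regions, 10.7% held the first and 23.3% the core. The RUNX pattern TGTGGTT was found in R5 and R9 (9.0% of all regions), the AP-1 pattern TGANTCA in R8, R9 and R10 (11.9%), and the CEBP pattern TTGCGCAA, with at most 1 mismatch, in R11 (7.38%). The half-site AGGTCA of nuclear receptors, paired as a direct repeat spaced by 1 base (DR1) or 4 bases (DR4) with at most 2 mismatches, was found in 0 of the 13 windows. DR1 occurred in 4.14% and DR4 in 2.63% of all regions. RXR dimers can bind such repeats, but these letters were searched in short windows only, and their absence or presence says nothing of binding.

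The partners of the receptor were taken from a list of 40 genes, each with 20 kb on either side. The ligand genes Csf1 and Il34 had 4 regions shared by the 8 libraries, of which 0 were called in either direction by limma. The strongest candidate at Csf1, a region beside the gene, had a difference of 0.19 (SE 0.088, adjusted p = 0.146). The GM-CSF receptor genes Csf2ra, Csf2rb and Csf2rb2 had 13 shared regions and 0 calls, with 0.31 (SE 0.11, adjusted p = 0.0655) at the promoter side of Csf2rb as the nearest to one.

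Among the kinases related to Csf1r (Kit, Flt3, Pdgfra and Pdgfrb), 13 shared regions held 0 lower and 1 higher call, which was R3 itself, since the window of Pdgfrb reaches into that of Csf1r. The genes of membrane-proximal signalling had 187 shared regions, with 11 called lower and 14 higher. The window of Dok1, an adaptor that dampens receptor signalling, held a lower region outside the gene body (chr6:83013449-83013875, -1.0, SE 0.18, limma adjusted p = 8.25e-05). Gab2, an adaptor that recruits PI3K, held a higher region within its body (0.75, SE 0.16, limma adjusted p = 0.000712). Of the PI3K genes on the list, Pik3cd held 1 lower and 3 higher regions, and Pik3r1 held 1 lower and 2 higher. Of 106 shared regions at genes of transcription factors, 4 were lower and 8 higher. Spi1, which encodes PU.1, held a lower region (-0.70, SE 0.13, adjusted p = 6.49e-05) and Runx1 held 3 higher ones, the clearest at 0.77 (SE 0.14, adjusted p = 0.000118), while 2 other regions at Runx1 were listed in all WT and no KO libraries. Over the whole list 4.64% of 323 shared regions were lower and 7.12% higher, beside 7.03% and 5.81% genome-wide. Of its 452 regions listed in 2 or more libraries, 11 had a peak in all WT and no KO libraries and 1 the reverse, R4 among the 11. Genome-wide, 0.820% of the 72711 such regions were listed in all WT and no KO libraries (596) and 0.285% the reverse (207). Whether the list departs from these shares was not tested.

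Of 11757 genes compared, those with promoters most like R6 in centred log2 tags over the 8 libraries included Ly6g6c (Pearson r = 0.966), Supv3l1 and 4930507D05Rik, which share 1 region (0.959), and Atg14 (0.944). These are descriptions over 8 libraries that share their depth and scaling, chosen from the highest of many.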

How the data were processed

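According to the study's methods and processing notes, the authors used Cutadapt to trim and Bowtie2 to align reads (mm10), dropped duplicates, and called peaks per library with MACS3 at a q-value of 0.05, using reads shifted and extended to 200 bp. Each deposited list gives a fold (a ratio of summit pileup to local background, each with 1 added), −log10 p- and q-values, a summit position and a display score, of which the score was not used. The local background may include tags of the peak itself and of its neighbours, so results on the local fold may not be independent of these. Where no peak is listed, the threshold was missed, which is not absence of signal. Whole tag numbers, worked back here from fold and p under the Poisson model, returned 100% of the p-values. These are summit heights, not read counts in fixed windows, so the edgeR test that the authors used was not fitted. Peaks sharing 1 base were merged and annotated with GENCODE M21. Log2(tags + 0.5) was median-centred per library and compared with limma 3.58.1 (R 4.3.3, trended prior) over 47499 regions with Benjamini-Hochberg adjustment. A check of this fit on simulated tags left out the peak-calling threshold, so it says nothing of regions near that threshold. Library-level values were tested by exact permutation (70 labelings, two-sided). The text describes every region, with all libraries for the promoter, first-intron, called, one-sided and unevenly listed ones. Csf2rb, Dok1, Gab2, Pik3cd, Pik3r1, Spi1, Runx1 and Csf1 were named after their values were seen. The members and lists were chosen with earlier results of these data known, and the alternative with close KO pairs was added after seeing the data. Interval and p-values cover counting and library spread only, which limma pools across regions through its prior. With scaling by genome-wide background the residual and prior degrees of freedom were 284994, so the variance was in effect common to all regions. Of the 5 genes that the rule on likeness to the promoter names, 1 is not reported here.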

Additional observations from a re-analysis of the deposited data

Results flagged for a closer look

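Of 22 sets of 4 values checked for a library far from the other libraries of its genotype, 1 was picked out: WT 3 had a peak in 12 regions of the Csf1r locus, where the other WT libraries each had 11. The gap to the nearest value was the whole range (a ratio of 1), which any single departure among tied counts gives. Chance picks out about 1 set in 20.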

How the results depend on the processing

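The difference in regions per library (-1.75) kept its direction throughout but missed p = 0.05 in the exact test with lists of equal length (-1), with replicates 1_2 and 1_3 as 1 sample (-2), with close KO pairs as 1 sample each (-1.75) and under the replicate block (-1.67, smallest possible p 0.25). Covered length (-566 bases) did likewise with equal lists (-374), 1_2 and 1_3 as 1 sample (-617), close KO pairs (-566) and the replicate block (-646), and ran from -652 to -446 without single libraries (p up to 0.0571 without KO 1_2, 2 or 3). The designs with merged or paired samples cannot reach the threshold by an exact test. One-sided regions numbered 0 with equal lists and 2 with −log10 q of at least 5, with 1 library allowed to depart, with 1_2 and 1_3 as 1 sample and with close KO pairs, and 1 to 2 without single libraries, R11 being the second without KO 1_2. Called regions fell from 3 to 1 with scaling by genome-wide background, with close KO pairs and on the local fold, and were 2 to 3 without single libraries. The mean of locus tags turned from 0.031 to -0.025 with background scaling and to -0.0022 under the replicate block. The promoter difference turned to -0.032 with background scaling, -0.052 with 1_2 and 1_3 as 1 sample and -0.090 on the local fold, and ran from -0.065 to 0.090 without single libraries. R8 kept its direction and was not called in any of 16 alternatives (0.035 to 0.16). Shared replicate numbers correlated at 0.056, 0.116 and 0.037 (1_2, 1_3 and 3), so they were not taken to pair the libraries, although each correlated best with its own number; the block left R7 (adjusted p 0.0401) and R12 called and lost R3 (0.0874). In the 5 regions not listed in every library, listed summits held 14 to 32 tags. The smallest that could be listed in the libraries without a peak was estimated at 8 to 18 tags. The part of depth in this uneven listing was not tested.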

Other observations

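The window around Csf1r was dense in open regions. It held 1.68 regions per 10 kb, counting those with a peak in at least 2 libraries, against a median of 0.493 over 21728 protein-coding genes with the same flanks, and 94.5% of those genes had a lower density. Beyond the window the next region upstream lay 25.6 kb from the gene body and the next downstream 44.3 kb from it, at the promoter of Hmgxb3, both with a peak in all 8 libraries.

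The base composition of the promoter region R6 was unlike that of most promoter regions. The 201 bases around its summit had a GC content of 51.7% and 6 CpG sites, where the medians over 10624 promoter regions were 64.7% and 17. Only 7.62% of them had a lower GC content and 11.1% had fewer CpG sites. R8 in the first intron had a GC content of 64.2% with 6 CpG sites, and R12 at the 3′ end had 55.2% with 3, beside medians of 50.7% and 3 over all 72711 regions. GC content was not used as a covariate, and its part in the differences between genotypes was not tested.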
